A study of Mus musculus with 33 samples.

Results

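Binding of Gata4, Mef2c and Tbx5 at the endogenous genes that encode these same 3 factors was read from ChIP-seq, the sequencing of chromatin fragments pulled down with an antibody to each factor. The regions are those of the deposited count table (build mm9) that start between chr14:63720000-63990000 for Gata4, chr13:83540000-83910000 for Mef2c and chr5:120180000-120440000 for Tbx5. They number 24 of 30815 regions, of which 18 were at Gata4, 5 at Mef2c and 1 at Tbx5. Each is named here by its locus and its order along the chromosome, from Gata4-1 to Gata4-18, Mef2c-1 to Mef2c-5, and Tbx5-1. The gene given to each window is that of the rule, since no gene model of build mm9 was used here, and whether a region is exonic, intronic or at a start site was not determined.

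Gata4 recognises GATA motifs through its zinc fingers, Mef2c recognises AT-rich MEF2 sites through a MADS box, and Tbx5 is of the T-box family. The 3 genes are active in the developing heart and regulate one another there, and supplied together from retroviruses they drive fibroblasts toward a cardiomyocyte-like state. A factor that binds its own gene or that of a partner can raise the endogenous copy, which is distinct from the copy on the virus. A retrovirus carries the coding sequence without introns, so its DNA in the genome can add reads wherever a counted region overlaps an exon of the endogenous gene.

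The cells were an immortalised line of cardiac fibroblasts from newborn CD-1 mice that expressed a cre-excisable large T antigen and carried the alpha-MHC-GFP reporter. Every sample, inputs included, came from infected cells that received sb431542 and xav939, inhibitors of the Tgfβ and Wnt pathways, and were harvested unsorted at day 2. Cells were infected either with all 3 viruses (Gata4, Mef2c and Tbx5) or with the virus of 1 factor alone, and no sample of uninfected cells was analysed here. Cells with all 3 viruses gave 6 Gata4 libraries, 4 Mef2c libraries, 4 Tbx5 libraries and 6 libraries of input, the sheared chromatin before pull-down. Single-virus cells gave 4 Gata4 libraries, 3 Mef2c libraries, 3 Tbx5 libraries and 1 input per virus. All come from 1 line, and although the series calls its replicates biological, the labels do not tie a library to a separate culture. The p-values therefore measure the spread between libraries, and no level of the factors' RNA or protein was analysed here.

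The libraries held 97474 to 2377616 counts over all regions, and the 3 inputs of single-virus cells were the shallowest, with 97474 to 127871. Libraries that agree within sampling noise were summed and counted once, namely Gata4 with all 3 viruses 1 and 6, inputs of those cells 1 and 3, and inputs 2, 4 and 5. This left 29 samples from 33 libraries. The fourth Gata4 library of cells with Gata4 alone stood apart, with a mean log2 level over the inputs of 0.15 at the 500 regions highest for Gata4, against 1.67 to 1.85 in the other 3. In cells with all 3 viruses, the libraries numbered 2, 4 and 5 had fewer reads on chromosome Y than those numbered 1, 3 and 6 of the same antibody or of the inputs. Levels are given as CPM, the counts scaled to a common total over regions after TMM scaling of all samples, and are listed in order of library number. Fold changes come from edgeR fits scaled within each comparison, so they can differ from the ratio of the mean CPM. Chromosome Y reads, as CPM of library totals without TMM, differed between kinds of cell too. Mef2c had 0, 11.7, 1.74 and 0 with the others and 5.31 to 8.71 alone. Tbx5 had 1.72, 11.7, 0 and 0.70, and 11.9 to 18.8 alone. Gata4 had 1.06 to 209, and 18.0 to 284 alone, with 18.0 in the library that stood apart. Inputs had 0 to 43.1 with all 3 viruses and 30.8 to 71.9 with 1. This difference was not tested in the changes from a single virus, beyond sets of libraries with all 3 viruses.

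By number of regions, the Gata4 window lay above the median window of its length and the other 2 lay below it. The 18 Gata4 regions lay in a window of 270 kb, where the median window of that length around a region of the table held 7, and 1.34% of regions had at least 18. The Mef2c window of 370 kb held 5 regions against a median of 8, and the Tbx5 window of 260 kb held 1 against a median of 6. Of the Gata4 regions, Gata4-8 to Gata4-12 formed a close group of 5 within 4116 bp, at chr14:63861036-63865151. Gata4-17 (chr14:63987398-63987680) and Gata4-18 (chr14:63987872-63988073) lay 191 bp apart at the far end of the window.

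Signal above input was tested for each antibody in each kind of cell against all 6 input samples. With all 3 viruses, Gata4 ChIP was above input at 7 and below it at 4 of the 20 regions that could be tested, where 29.8% of all tested regions were above and 28.2% below (57.9% in either direction). Mef2c ChIP was above input at 9 and below at 7 of 21 (38.2% and 35.5% of all tested regions, 73.7% in either direction), and Tbx5 ChIP was above at 8 and below at 7 of 21 (35.4% and 37%, 72.4% in either). In cells with a single virus, Gata4 was above input at 3 and below at 2 of 14 (23.7% and 12.8% of all, 36.5% in either direction), Mef2c above at 8 and below at 6 of 23 (33.6% and 39.7%, 73.3% in either), and Tbx5 above at 6 and below at 3 of 16 (33.4% and 34.8%, 68.2% in either). The 6 comparisons share the inputs. What follows concerns which regions these were. No region at Tbx5 was above input for any antibody. With scaling by library totals in place of TMM, the median log2 fold change of all regions over input moved by -0.27 to -1.48 for the 6 ChIP groups, so every fold over input is relative to the regions as a set. With that scaling the calls above input were lost for Gata4 with the others at Gata4-12, Gata4-13 and Gata4-17, for Mef2c with the others at Gata4-8, Mef2c-1 and Mef2c-3, and for Tbx5 with the others at Gata4-5, Gata4-9, Gata4-10 and Gata4-18. In cells with a single virus they were lost for Gata4 at Gata4-10 and Gata4-15, for Mef2c at Gata4-17 (-0.41) and Mef2c-4 (-0.08), and for Tbx5 at Gata4-1 and Gata4-9. For Tbx5 alone, the choice of inputs also decided calls: against the 3 single-virus inputs only, Gata4-4, Gata4-8 and Gata4-11 stood at -0.37, 0.26 and 0.23 (edgeR adjusted p 0.446, 0.693 and 0.739), while Gata4-17 stayed above input at 1.68 ± 0.49 (adjusted p = 0.00814). For Mef2c alone the call at Gata4-17 was lost against those inputs too.

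**Figure D1:**
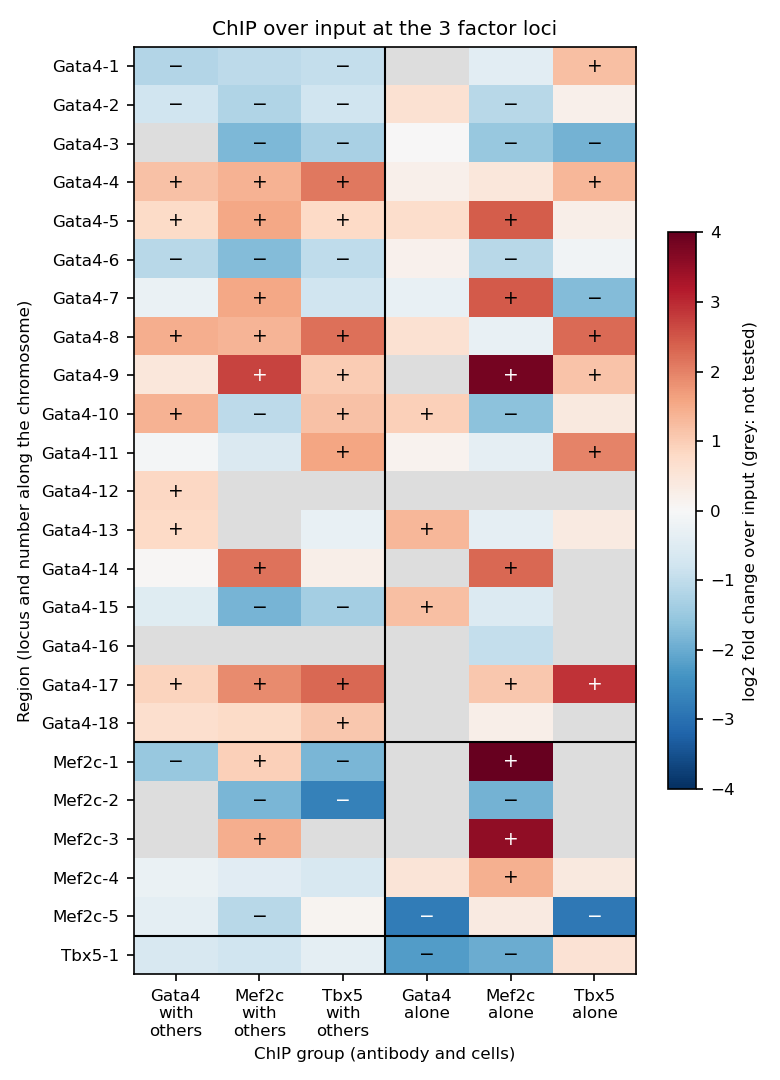
Log2 fold change over input (colour) at the 24 regions (rows) for each antibody with the other viruses or alone (columns), with + for regions called above input, − for regions called below it (edgeR, adjusted p under 0.05) and grey for regions not tested. Gata4-9, Mef2c-1 and Mef2c-3 carry + in both Mef2c columns, Gata4-17 carries + in both Tbx5 columns, and Tbx5-1 carries none.

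In the close group at the Gata4 locus, neighbouring regions differed in which antibody gave the most reads. Gata4-8 (chr14:63861036-63861344) was above input for all 3 factors in cells with all 3 viruses. There the Gata4 samples had 71.9, 56.6, 55.5, 56.8 and 72.6 CPM, the Mef2c samples 43.6, 65.4, 76.0 and 82.8, and the Tbx5 samples 105, 88.3, 118 and 107. Inputs of the same cells had 18.6, 17.2 and 16.5 CPM, and those of the Gata4, Mef2c and Tbx5 single-virus cells 43.2, 22.1 and 13.7. Every ChIP sample of cells with all 3 viruses exceeded every input at this region. The log2 fold changes over input were 1.44 ± 0.27 for Gata4, 1.36 ± 0.32 for Mef2c and 2.2 ± 0.27 for Tbx5 (edgeR, SE, adjusted p 3.12e-05, 0.000453 and 2.04e-09). For Mef2c the call was lost without the pooled inputs 2, 4 and 5 (adjusted p = 0.0621).

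Gata4-9 (chr14:63861576-63861778) lay 231 bp further on and was the region of the locus with the largest fold over input, for Mef2c. The Mef2c samples with all 3 viruses had 68.8, 166, 172 and 158 CPM, and those with Mef2c alone had 239, 271 and 291. The 6 inputs ran from 5.39 to 27.6 CPM, below every Mef2c sample. Mef2c was above input by 2.71 ± 0.31 on the log2 scale with the others and by 3.84 ± 0.23 alone (edgeR adjusted p 2.28e-09 and 3.01e-32). The Gata4 samples with all 3 viruses had 28.5, 30.2, 11.4, 30.7 and 29.8 CPM, and the Tbx5 samples 46.6, 22.3, 48.3 and 36.8. Gata4 did not pass the test over input (0.45 ± 0.32, adjusted p = 0.229), whereas Tbx5 did at 1.01 ± 0.34 (adjusted p = 0.00795), a call that was lost without the pooled inputs 2, 4 and 5 (adjusted p = 0.117).

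Gata4-10 (chr14:63863413-63863722) showed the converse order. Gata4 samples with all 3 viruses had 95.3, 50.9, 66.9, 40.2 and 58.6 CPM and Tbx5 samples 46.6, 69.3, 40.9 and 54.9. Mef2c samples had 13.8, 9.02, 8.45 and 20.2 CPM, where the inputs had 11 to 32.4. Every Gata4 and Tbx5 sample of these cells exceeded every input, with log2 fold changes of 1.40 ± 0.28 for Gata4 and 1.17 ± 0.30 for Tbx5, against -1.04 ± 0.42 for Mef2c (edgeR adjusted p 6.31e-05, 0.000732 and 0.0253). The call below input for Mef2c was lost without Mef2c sample 3 or without sample 4 (adjusted p up to 0.21 over its alternatives). Gata4-11 (chr14:63864066-63864315) was above input for Tbx5 in both kinds of cell, with 39.7, 61.5, 90.5 and 68.2 CPM with the others and 99.1, 103 and 71.7 alone, against 10.9 to 32.4 in the inputs. The other antibodies at Gata4-11 had 6.88 to 36.3 CPM over both kinds of cell, in the range of the inputs apart from 1 sample of Gata4 alone above it and 1 sample of Mef2c with the others below it.

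Antibodies were then compared directly in cells with all 3 viruses, where antibody and factor differ together. Over all members, Gata4 had more reads than Mef2c at 3 regions and fewer at 7 of 22 tested (29% and 34.1% of all tested regions, 63.1% in either direction), more than Tbx5 at 3 and fewer at 4 of 20 (23.4% and 26.6%, 50% in either), and Mef2c had more than Tbx5 at 6 and fewer at 4 of 20 (36.7% and 35.1%, 71.7% in either). Within the close group, Mef2c exceeded Tbx5 at Gata4-9 by 1.83 ± 0.30 on the log2 scale and lay below it at Gata4-10 (-2.07 ± 0.36) and Gata4-11 (-1.97 ± 0.33), with adjusted p of 2.7e-05, 4.76e-05 and 2.6e-05 (edgeR) and no overlap of samples. Mef2c exceeded Gata4 at Gata4-9, where Gata4 against Mef2c was -2.34 ± 0.31, and Gata4 exceeded Mef2c at Gata4-10 by 2.35 ± 0.36 (adjusted p 2.6e-07 and 1.9e-06). Tbx5 exceeded Gata4 at Gata4-11, where Gata4 against Tbx5 was -1.45 ± 0.26 (adjusted p = 3.92e-05). All of these calls were kept under every alternative run, which included a block on the library number. That block added a call in each comparison: Gata4 against Mef2c at Mef2c-5 (0.71 without the block, 0.76 ± 0.29 with it, adjusted p 0.0641 and 0.0155), Gata4 against Tbx5 at Mef2c-4 (0.63 and 0.77 ± 0.25, 0.0813 and 0.00636) and Mef2c against Tbx5 at Gata4-4 (-0.56 and -0.57 ± 0.19, 0.059 and 0.00545). At Gata4-8 the differences from Tbx5 were smaller, -0.56 ± 0.20 for Gata4 and -0.68 ± 0.25 for Mef2c (adjusted p 0.023 and 0.0199). They were lost when 4 of 9 and 5 of 8 samples were left out in turn (adjusted p 0.0501 to 0.131 and 0.0584 to 0.193). Chromatin was sheared to fragments that can span the gap between Gata4-8 and Gata4-9, so part of their reads may be shared. That share was not tested.

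Outside the close group, Gata4-14 (chr14:63883109-63883311) and Gata4-7 (chr14:63857335-63857558) were above input with the Mef2c antibody. No other antibody was above input at either where it could be tested. Gata4-7 could be tested in all 6 ChIP groups and Gata4-14 in 4 of them. Gata4-7 had 45.9, 98.1, 66.6 and 120.3 CPM for Mef2c with the others and 139, 121 and 123 for Mef2c alone. Its inputs ran from 14.3 to 34.2 CPM. The Gata4 samples with the others (9.46 to 28.3 CPM) and the Tbx5 samples (6.20 to 17.9) lay below every Mef2c sample of the same cells. Mef2c was above input at Gata4-7 by 1.54 ± 0.33 with the others and 2.46 ± 0.27 alone (edgeR adjusted p 0.000156 and 7.99e-15), and exceeded Tbx5 by 2.5 ± 0.37 (adjusted p = 8.81e-06). Gata4-14 had 32.1 to 115 CPM for Mef2c with the others and 62.0 to 81.3 alone, against 10.2 to 21.3 for Gata4 with the others, 12.5 to 27.3 for Tbx5 with the others and 0 to 16.5 in the inputs. The folds over input were 2.17 ± 0.36 and 2.30 ± 0.32 for Mef2c with the others and alone (adjusted p 3.6e-06 and 2.44e-10), and no Mef2c sample overlapped the inputs at either region.

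Gata4-5 (chr14:63824057-63824891), at 835 bp the longest region of the 3 loci, was above input most in the Mef2c samples. It had 346, 367 and 349.8 CPM for Mef2c alone and 98.6, 209, 304 and 304 for Mef2c with the others, against 44.1 to 74.1 in the inputs. The log2 fold changes over input were 2.42 ± 0.17 and 1.55 ± 0.23 (edgeR adjusted p 9.22e-27 and 6.04e-07). Gata4 and Tbx5 samples with all 3 viruses had 82.5 to 147 and 79.3 to 156 CPM, above every input, with smaller folds of 0.77 ± 0.22 and 0.80 ± 0.22 (adjusted p 0.00363 and 0.00167). Both smaller calls rested on the inputs of cells with all 3 viruses: for Gata4 the call was lost without the pooled inputs 1 and 3 or the pooled inputs 2, 4 and 5 (adjusted p 0.0855 to 0.1002), and for Tbx5 without the latter (0.0684). With every library as its own sample the Tbx5 fold was -0.09.

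Gata4-17 was the region of the locus with the largest fold for Tbx5. Tbx5 alone gave 134, 181 and 162 CPM and Tbx5 with the others 77.6, 95, 121 and 91.7, where the inputs ran from 5.51 to 28.8. The log2 fold changes over input were 2.88 ± 0.26 alone and 2.28 ± 0.28 with the others (edgeR adjusted p 6.69e-17 and 2.18e-09). Mef2c with the others had 57.3, 91.3, 107 and 79.8 CPM (1.90 ± 0.32, adjusted p = 5.64e-06) and Gata4 with the others 45.4, 31.1, 37.0, 37.8 and 36.3 (0.89 ± 0.29, adjusted p = 0.00854). The 3 groups of cells with all 3 viruses did not overlap the inputs, and Gata4 lay below both other factors there. Gata4 against Tbx5 was -1.19 ± 0.22 and Gata4 against Mef2c -1.07 ± 0.28 (adjusted p 5.32e-05 and 0.00156), and the second was lost with scaling by library totals (0.0568). The Gata4 call over input was lost without the pooled inputs 1 and 3 or 2, 4 and 5 (adjusted p 0.106 to 0.164).

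In cells with Gata4 alone, 3 of the 11 tested regions of the Gata4 locus were above input with the Gata4 antibody. Of all tested regions, 23.7% were above input in this comparison. Gata4-10, Gata4-13 and Gata4-15 were called, with log2 fold changes of 0.96 ± 0.38, 1.33 ± 0.40 and 1.22 ± 0.40 (edgeR adjusted p 0.0412, 0.0102 and 0.0163). At Gata4-15 (chr14:63890492-63890698) the 4 samples had 46.5, 52.7, 78.4 and 9.18 CPM against 14.3 to 34.2 in the inputs. The library that stood apart was thus below the inputs while the other 3 were above all of them. The same library was the lowest of its group at Gata4-10 (12.2 CPM against 54.3 to 57.6) and at Gata4-13 (18.4 against 61.2 to 100.4). The number of members called over input in this comparison moved from 5 of 14 tested to 12 of 21 without that library, 8 of them higher. It fell to 2 of 10 tested without any 1 of the other 3. Without the pooled inputs 1 and 3 or 2, 4 and 5 it was 0 of 7. The low-count filter thus changed which members were tested, and the share of all regions called in these fits is not given here. Each of the 3 calls above input was lost without any 1 of those 5 samples, and Gata4-10 also without input 6 or the input of Mef2c alone (adjusted p up to 0.928). Without the library that stood apart, the calls above input also took in Gata4-2, Gata4-4, Gata4-5, Gata4-8 and Mef2c-4.

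With all samples, the remaining Gata4 regions were called above input for 1 antibody at most. Gata4-2, Gata4-3 and Gata4-6 were then not above input for any antibody. Each was called below it in 4 ChIP groups, of 6 tested for Gata4-2 and Gata4-6 and 5 for Gata4-3. Gata4-16 could be tested over input in 1 group, Mef2c alone, where it did not pass (-0.95 ± 0.58, adjusted p = 0.132), and its samples had 2.98 to 30.6 CPM. Gata4-12 and Gata4-13 were above input for Gata4 with the others by 0.84 ± 0.35 and 0.81 ± 0.31 (edgeR adjusted p 0.0366 and 0.0238). They were kept under 8 of 20 and 10 of 21 alternatives, and both were lost without Gata4 sample 1 or 3, without any input sample of cells with all 3 viruses or without the input of Gata4 alone (adjusted p up to 0.4 and 0.335 over the alternatives). Gata4-12 was lost without Gata4 sample 5 too. Gata4-18 was above input for Tbx5 with the others by 1.08 ± 0.35 (adjusted p = 0.00596), a call lost without the pooled inputs 2, 4 and 5 (adjusted p up to 0.219 over its alternatives).

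**Figure D2:**
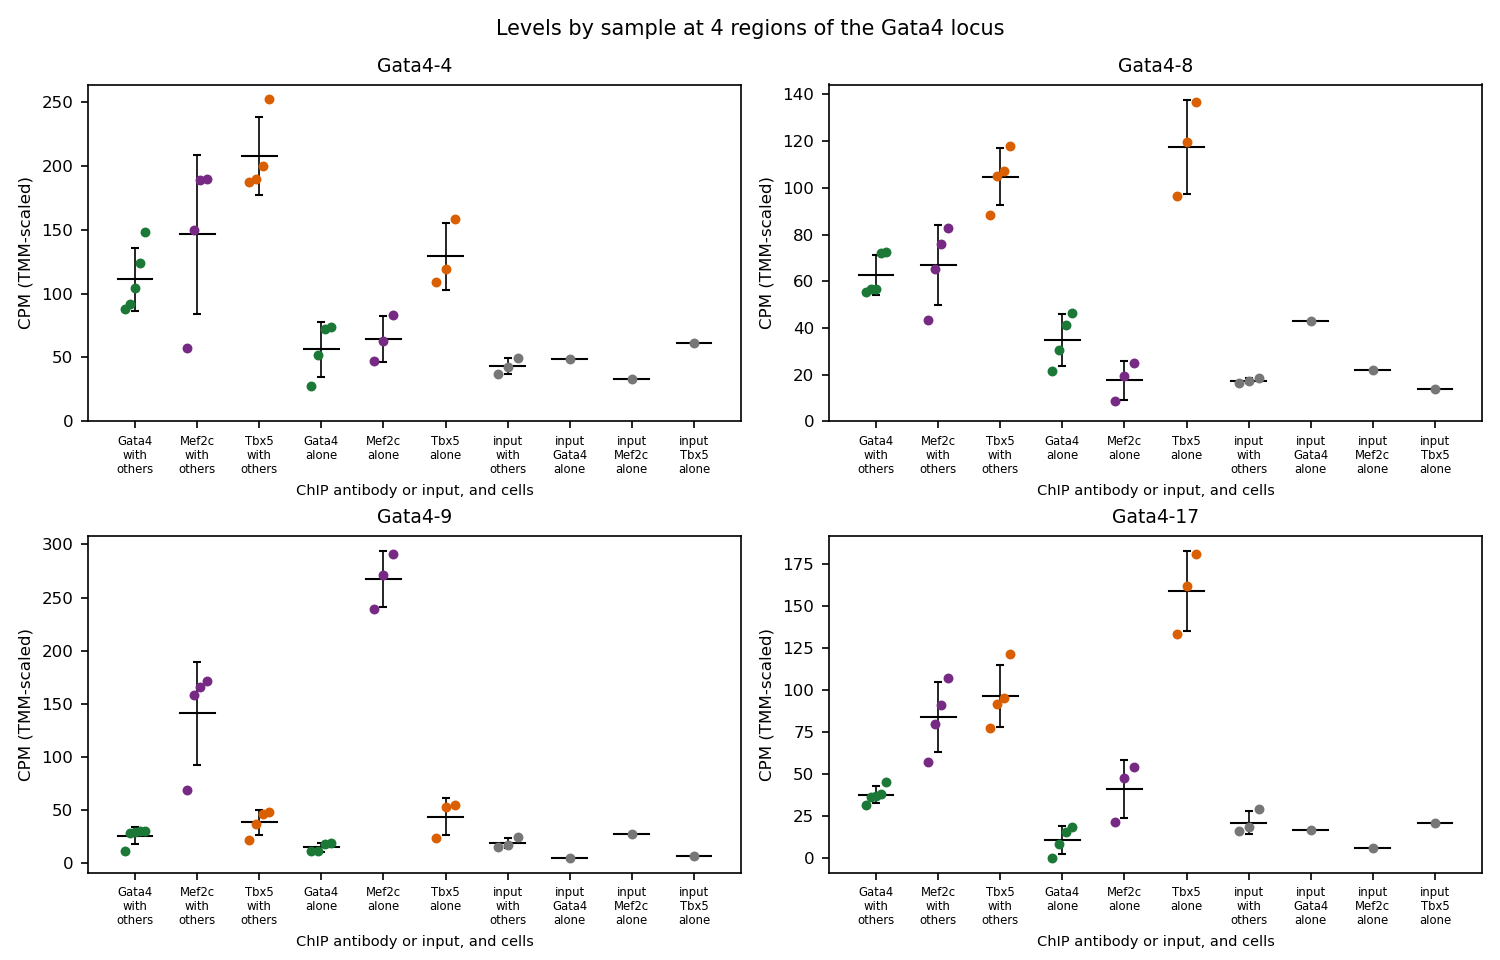
CPM of each sample (points) at Gata4-4, Gata4-8, Gata4-9 and Gata4-17 by antibody or input and kind of cell, with the mean (line) and SD (bar, groups of 2 or more samples). At Gata4-9 all Mef2c samples lie above all inputs and the Mef2c alone samples are highest, and at Gata4-17 the Tbx5 alone samples (134 to 181 CPM) are highest.

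Each factor's binding with the other viruses was then compared with its binding alone, the question in the title of the series. For Gata4, 5 members rose and 4 fell of 18 tested, where 16.5% of all tested regions rose and 15.2% fell (31.7% in either direction). For Mef2c, 5 rose and 5 fell of 17 (31.3% and 28.8% of all, 60.1% in either direction), and for Tbx5, 2 rose and 6 fell of 17 (18.8% and 14.9%, 33.7% in either). The median log2 change of the members tested was 0.22, 0.39 and -0.64 for Gata4, Mef2c and Tbx5, against -0.0032, 0.15 and 0.0057 over all tested regions. The 3 comparisons use different samples on both sides. In 1 fit of all groups the calls given below were lost for Tbx5 at Gata4-2, Gata4-4, Gata4-17, Mef2c-4 and Tbx5-1 (adjusted p 0.052 to 0.224) and for Gata4 at Gata4-8 (0.0758). With scaling by library totals those for Mef2c were lost at Gata4-9 and Mef2c-5 (0.26 and 0.162).

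Gata4-4 (chr14:63813873-63814404) was higher with the others for all 3 antibodies. Gata4 samples had 124, 105, 88.2, 92.2 and 148 CPM with the others and 73.7, 72.4, 51.6 and 27.5 alone. Mef2c samples had 57.3, 149.98, 189 and 189 CPM against 47.0, 83.4 and 62.6, and Tbx5 samples 200.1, 188, 189.6 and 252 against 159, 109 and 119.5. The samples with the others exceeded all samples alone for Gata4 and Tbx5, while for Mef2c sample 2 overlapped the alone group. The log2 changes were 1.00 ± 0.30, 1.5 ± 0.31 and 0.72 ± 0.21 (edgeR adjusted p 0.014, 0.000187 and 0.0145). The Mef2c change was kept under every alternative run. The Gata4 change was lost without Gata4 sample 5 or without Gata4 alone 1 or 3 (adjusted p 0.0638 to 0.114), with only the libraries numbered 1, 3 and 6 of cells with all 3 viruses (0.201) and without the low-count filter, and the Tbx5 change without Tbx5 alone 2 or 3 (0.0712 to 0.0793). Over input, with the others, Gata4-4 stood at 1.18 ± 0.23 for Gata4, 1.38 ± 0.26 for Mef2c and 2.10 ± 0.21 for Tbx5, where the inputs had 33.1 to 61.5 CPM.

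At Gata4-8, the Mef2c antibody gave 8.55, 25.0 and 19.4 CPM alone, within or below the inputs, and 43.6 to 82.8 with the others. This rise of 2.25 ± 0.38 on the log2 scale (edgeR adjusted p = 1.72e-05) was kept under every alternative run. Tbx5 was already high alone, at 96.6, 137 and 119.5 CPM, and did not change by the test (-0.13 ± 0.21, adjusted p = 0.657). Gata4 alone had 46.5, 41.1, 30.6 and 21.4 CPM, and its rise of 0.86 ± 0.28 (adjusted p = 0.0239) was lost on leaving out 5 of 9 samples in turn, namely Gata4 samples 1 or 5 or Gata4 alone 1, 2 or 3 (0.0736 to 0.166). It was also lost without the low-count filter, with only libraries 2, 4 and 5 of cells with all 3 viruses (0.0732) and with only libraries 1, 3 and 6 (0.157).

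At Gata4-17, Gata4 and Mef2c rose while Tbx5 fell. Gata4 alone had 0, 8.23, 15.3 and 18.4 CPM, within or below the inputs, against 31.1 to 45.4 with the others, a rise of 1.94 ± 0.47 (edgeR adjusted p = 0.0038). Mef2c alone had 21.4, 54.2 and 47.5 CPM against 57.3 to 107, a rise of 1.37 ± 0.33 (adjusted p = 0.000969). Both rises were kept under every alternative run and neither pair of groups overlapped. Tbx5 went from 134 to 181 CPM alone to 77.6 to 121 with the others, a log2 change of -0.69 ± 0.20 (adjusted p = 0.0157). That call was lost without Tbx5 sample 2 or 5 or without Tbx5 alone 2 or 3 (0.0508 to 0.102).

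Other Gata4 regions went the other way. At Gata4-9 Mef2c fell by 0.59 ± 0.24 on the log2 scale (edgeR adjusted p = 0.035) with no overlap of samples, but the call was lost without Mef2c sample 2 or 5 or without Mef2c alone 2 or 3 (0.058 to 0.101). At Gata4-1 (chr14:63731152-63731378), Tbx5 alone gave 39.6, 51.3 and 42.5 CPM against 17.2, 8.94, 8.68 and 4.70 with the others and 0 to 24.7 in the inputs, and the fall was -2.21 ± 0.45 (adjusted p = 0.00196). At Gata4-15, Tbx5 had 32.2, 37.6 and 26.6 CPM alone against 1.72, 7.82, 14.9 and 6.27 with the others (-1.99 ± 0.48, adjusted p = 0.00554). The input of Tbx5 alone had 34.2 CPM there, and Tbx5 alone was not called above input. Gata4 fell there too, from the values above to 18.1, 10.4, 14.2, 11.8 and 17.7 CPM (-1.65 ± 0.36, adjusted p = 0.00185). The library that stood apart, at 9.18 CPM, made these Gata4 groups overlap. At Gata4-2 (chr14:63749471-63749864) Gata4 went from 56.2, 60.9, 76.5 and 30.6 CPM alone to 25.3, 17.0, 15.7, 21.3 and 29.8 (-1.33 ± 0.29, adjusted p = 0.00192) and Tbx5 from 37.2, 47.9 and 58.4 to 22.4, 19.0, 14.9 and 28.2 (-1.12 ± 0.36, adjusted p = 0.0262). The Tbx5 call at Gata4-2 was lost without Tbx5 sample 3 or without Tbx5 alone 2 or 3 (0.0646 to 0.14). The Gata4 falls at Gata4-2 and Gata4-15 were lost with only libraries 1, 3 and 6 of cells with all 3 viruses (-1.32 and -1.42, adjusted p 0.0637 and 0.0646). Neither antibody passed the test over input at Gata4-2 when alone (0.61 ± 0.37 and 0.22 ± 0.31, adjusted p 0.174 and 0.532), but without the library that stood apart Gata4 alone was above input there by 0.94 ± 0.28 (edgeR adjusted p = 0.00288).

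**Figure D3:**
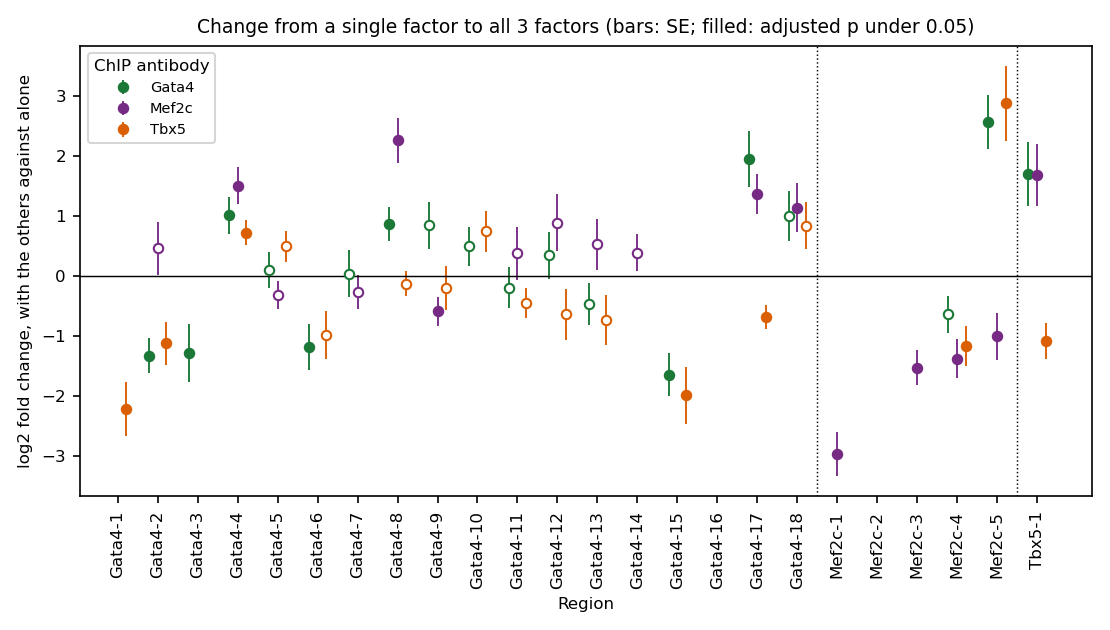
Log2 fold change (vertical axis, with its SE) of each antibody's signal from cells with that factor's virus alone to cells with all 3 viruses, for the regions tested (horizontal axis), filled where the adjusted p was under 0.05. Gata4-4 is raised for all 3 antibodies, Gata4-17 is raised for Gata4 and Mef2c and lowered for Tbx5, and all 4 tested Mef2c regions are lowered for Mef2c.

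At Mef2c-1, Mef2c-3 and Mef2c-4, Mef2c ChIP was highest with Mef2c alone and lower with the others. Mef2c-1 (chr13:83600860-83601062) had 372, 332 and 443 CPM for Mef2c alone against 22.9, 21.4, 95.7 and 19.1 with the others. Inputs had 13.6 to 22.1 CPM. The samples alone exceeded every input and every sample with the others, and sample 4 stood apart among the latter. Mef2c alone was above input by 4.48 ± 0.22 on the log2 scale, the largest fold over input among the 24 regions (edgeR adjusted p = 3.32e-41). With the others it was above input by 0.95 ± 0.41 (adjusted p = 0.0354), and that call was lost on leaving out any of 6 of 10 samples, namely Mef2c sample 4 (0.15, adjusted p = 0.759), each of the 3 input samples of these cells, or the input of Gata4 or of Mef2c alone (adjusted p from 0.0516). The fall from Mef2c alone to all 3 viruses was -2.97 ± 0.36 (adjusted p = 3.93e-07), and it was kept under every alternative run.

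Mef2c-3 (chr13:83743138-83743443) followed the same order. It had 149.7, 156 and 155 CPM for Mef2c alone and 16.1, 54.1, 56.3 and 41.1 with the others, against 0 to 27.3 in the inputs. Mef2c was above input by 3.53 ± 0.29 alone and by 1.44 ± 0.38 with the others (edgeR adjusted p 2.2e-22 and 0.00137), and fell by 1.53 ± 0.29 from the first to the second (adjusted p = 7.78e-05). The call over input with the others was lost without the pooled inputs 1 and 3 or 2, 4 and 5 (0.0532 to 0.141). Mef2c-4 (chr13:83792058-83792453) had 77.0, 98.0 and 110.1 CPM alone against 32.1, 24.8, 37.5 and 23.2 with the others (-1.38 ± 0.33, adjusted p = 0.000785). It was above input for Mef2c alone (1.42 ± 0.27, adjusted p = 2.23e-06) but at -0.08 with scaling by library totals, and with the others it did not pass the test over input (-0.44 ± 0.36, adjusted p = 0.262). The falls at Mef2c-3 and Mef2c-4 were kept under every alternative run. Mef2c-2 (chr13:83680608-83680808) was below input in the 3 groups tested, with 0 to 24.5 CPM over the ChIP samples.

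The other 2 antibodies were not above input at any Mef2c region where they could be tested, except Gata4 alone at Mef2c-4 when the library that stood apart was left out. The tests covered 3 of the 5 regions for Gata4 with the others, 4 for Tbx5 with the others and 2 for each of them alone. Mef2c-3 could be tested over input for Mef2c only. With the others, Gata4 had 3.89 to 9.96 CPM at Mef2c-1 and Tbx5 3.14 to 6.70, both below every input (-1.53 ± 0.45 and -1.82 ± 0.44, edgeR adjusted p 0.0038 and 0.000328). Mef2c exceeded Tbx5 by 2.95 ± 0.55 at Mef2c-1 and by 2.47 ± 0.42 at Mef2c-3 (adjusted p 9.79e-05 and 3.79e-05), and exceeded Gata4 at both, where Gata4 against Mef2c was -2.58 ± 0.46 and -2.38 ± 0.36 (adjusted p 1.64e-05 and 1.46e-06). At Mef2c-4 Tbx5 fell from 57.0, 44.5 and 50.5 CPM alone to 12.1, 21.2, 33.5 and 21.2 (-1.18 ± 0.33, adjusted p = 0.0142), although Tbx5 alone had not passed the test over input there (0.39 ± 0.31, adjusted p = 0.261). That fall was lost without Tbx5 alone 1 or 3 (0.0606 to 0.0674).

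**Figure D4:**
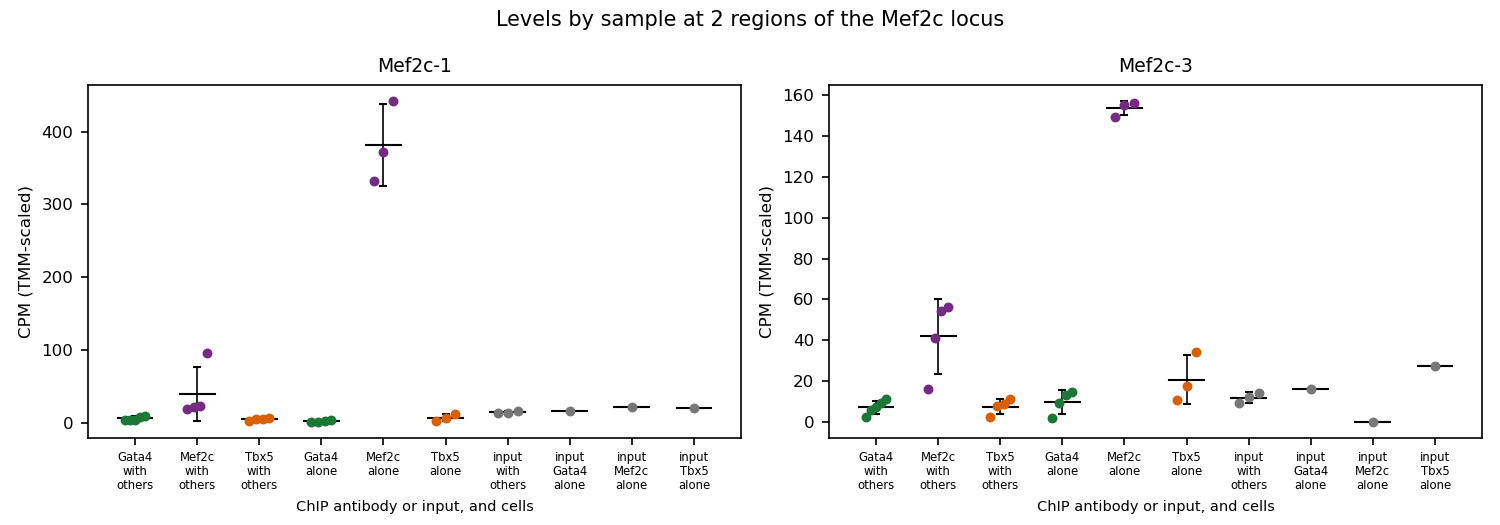
CPM of each sample (points) at Mef2c-1 and Mef2c-3 by antibody or input and kind of cell, with the mean (line) and SD (bar, groups of 2 or more samples). The 3 samples of Mef2c alone lie between 332 and 443 CPM at Mef2c-1 and between 149.7 and 156 at Mef2c-3, above all other samples.

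RefSeq (build GRCm38.p6) lists 3 promoters of Mef2c, and the 250 bases before each start were searched on both strands for AGATAA as a motif of zinc-finger factors such as Gata4, for AGGTGT as a motif of T-box factors, and for the MEF2 consensus by name. The list used held no promoter of Gata4 or Tbx5, so those genes were not searched. The 3 motifs were found in 9.99%, 11.8% and 2.92% of 32851 promoter windows of that length. The 3 windows held 1 match in all, an AGGTGT that starts 216 bases before the start in the window chr13:83523406-83523655 (plus strand). That window is shown because it is the Mef2c window with a match, and the capitals mark it. The windows are on another build than the ChIP-seq regions, so their distance from Mef2c-1 to Mef2c-5 is not given.
Mef2c promoter: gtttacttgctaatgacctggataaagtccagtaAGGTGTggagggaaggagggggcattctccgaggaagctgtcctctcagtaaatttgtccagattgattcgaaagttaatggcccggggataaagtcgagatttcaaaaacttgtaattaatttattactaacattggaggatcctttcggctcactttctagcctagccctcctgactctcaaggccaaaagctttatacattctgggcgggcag
The matches are letters in these windows only, and the sequences of the ChIP-seq regions themselves were not analysed here.

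Mef2c-5 (chr13:83802070-83802270) and Tbx5-1 (chr5:120321192-120321392) had more reads in cells that carried the virus of the gene at that locus, also in the inputs when these were pooled. At Mef2c-5 the inputs of cells with all 3 viruses held 17, 18, 17, 17, 18 and 11 reads by library and the input with Mef2c alone 9, while the inputs with Gata4 alone and Tbx5 alone held 0 and 3. This makes 107 reads in 1488894 counts with the Mef2c virus and 3 in 225345 without it, a ratio of 5.40 (95% counting interval 1.80 to 26.6). No library with the virus overlapped a library without it. An interval above 1 was found at 2.78% of all regions for this virus, and at 3 of the 24 members, the others being Gata4-1 and Mef2c-4. Gata4-1, at another locus, held 40 reads with the Mef2c virus and 1 without it. Its ratio was 6.05 (1.03 to 245), with no overlap of libraries. Libraries did not overlap at Gata4-9 (higher with the virus) and Gata4-16 (lower) either, where the interval took in 1. The same held for the Gata4 virus at Mef2c-1 (lower with it) and for the Tbx5 virus at Gata4-2 and Gata4-6 (higher). Each of these comparisons sets 7 libraries against 2, and how often such libraries do not overlap over all regions was not counted. Mef2c-4 held 83 reads with the Mef2c virus and 3 without it, a ratio of 4.19 (1.38 to 20.7) with no overlap of libraries. Over all 29 samples Mef2c-4 was not higher with that virus, with a median of 32.8 CPM (12.1 to 110.1) in the 20 samples that carried it and 44.6 CPM (0 to 72.4) in the 9 that did not. At Tbx5-1 the inputs held 99 reads in 1461187 counts with the Tbx5 virus and 5 in 253052 without it, a ratio of 3.43 (1.42 to 10.8), with 6 reads in the input of Tbx5 alone, 5 with Gata4 alone and 0 with Mef2c alone. Here libraries with and without the virus overlapped, and 2.45% of all regions had an interval above 1. Of the 99 reads, 93 came from inputs of cells with all 3 viruses. Among the single-virus inputs only, the ratio for the Tbx5 virus at Tbx5-1 was 3.12 (0.79 to 12.9), an interval that takes in 1. That for the Mef2c virus at Mef2c-5 was 5.40 (1.35 to 31.0). For the Gata4 virus no region of the Gata4 locus had an interval above 1, where 2.82% of all regions did. Tbx5-1 did for that virus too (2.44, 1.08 to 6.81). Intervals lay below 1 at 2, 2 and 1 members for the Gata4, Mef2c and Tbx5 virus, against 3.06%, 3.38% and 3.12% of all regions. The 2 for the Gata4 virus were Gata4-12 (0.36, 0.16 to 0.90) and Gata4-13 (0.48, 0.25 to 0.98), both with no overlap of libraries. The intervals cover counting error only, and the inputs without a virus are 1 library for each of the other viruses.

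With edgeR, no member was called in the inputs for any of the viruses. The low-count filter left 3 of the 24 members among 1920 regions tested, of which 0 were called and 101, 155 and 106 had an unadjusted p under 0.05 for the Gata4, Mef2c and Tbx5 virus. Mef2c-5 was among the 3, at a log2 difference of 2.56 ± 0.69 for the Mef2c virus (adjusted p = 0.164). Without the filter, Mef2c-5 stood at 2.41 ± 0.68 for that virus (unadjusted p = 0.000533, adjusted p = 0.63) and Tbx5-1 at 1.71 ± 0.61 for the Tbx5 virus (0.00591 and 0.88). Without the input of Gata4 alone, 1 member was called for the Mef2c virus, Mef2c-4 (adjusted p = 0.0498), which had no read in the single library then left in the other arm.

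In the ChIP samples, Mef2c-5 had 36.9, 43.4, 31.3, 40.2 and 26.0 CPM for Gata4 with the others and 9.70, 1.65, 9.56 and 3.06 for Gata4 alone. It had 50.0, 30.2, 85.5 and 28.2 CPM for Tbx5 with the others and 7.43, 0 and 10.6 for Tbx5 alone. The groups did not overlap, and the changes were 2.56 ± 0.45 for Gata4 and 2.87 ± 0.62 for Tbx5 (edgeR adjusted p 0.000398 and 0.00313), both kept under every alternative run. In both cases the group with the lower level lacked the Mef2c virus. For Mef2c, where both groups carried that virus, the level went from 42.8, 81.3 and 49.7 CPM alone to 32.1, 18.0, 31.9 and 13.7 with the others (-1.01 ± 0.39, adjusted p = 0.0292). This call was lost without Mef2c sample 3 or 5 or without Mef2c alone 2 (0.116 to 0.192). No antibody was above input at Mef2c-5 in any group, and with the others the folds over input were -0.38 ± 0.28 for Gata4, -1.11 ± 0.40 for Mef2c and 0.11 ± 0.35 for Tbx5 (adjusted p 0.236, 0.0127 and 0.791). The Mef2c call below input was lost without Mef2c sample 5 (0.112). Gata4 alone and Tbx5 alone, which lacked the Mef2c virus, were below the inputs as a set by -2.81 ± 0.51 and -2.86 ± 0.51 (adjusted p 0.000313 and 1.09e-06), of which 4 of 6 carried it. The inputs of cells with all 3 viruses had 48.5, 48.1 and 45.3 CPM there, above every Gata4 and Mef2c sample of those cells.

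Tbx5-1 showed the same with respect to the Tbx5 virus. Gata4 had 22.7, 47.1, 21.3, 37.8 and 14.9 CPM with the others and 5.82, 8.23, 3.82 and 21.4 alone, and Mef2c had 45.9, 15.8, 30.0 and 22 against 15.0, 8.34 and 8.64. The Gata4 groups overlapped through Gata4 alone 4 and the Mef2c groups did not. The rises were 1.69 ± 0.53 and 1.68 ± 0.51 (edgeR adjusted p 0.0188 and 0.00664). For Tbx5, where both groups carried the virus, 27.6, 32.4, 43.4 and 26.7 CPM with the others stood against 79.3, 85.5 and 47.8 alone, a change of -1.09 ± 0.30 (adjusted p = 0.0115). The inputs of cells with all 3 viruses had 57.1, 39.0 and 41.2 CPM and that of Tbx5 alone 41.0. The Gata4 rise was lost without Gata4 sample 2 or without Gata4 alone 1, 2 or 3 (0.0705 to 0.0937) and with only libraries 1, 3 and 6 of cells with all 3 viruses (0.221), the Mef2c rise without Mef2c alone 2 (0.0501), and the Tbx5 fall without Tbx5 alone 1 or 2 (0.0589 to 0.0763). Whether Mef2c-5 or Tbx5-1 lies in a sequence that the viruses carry was not tested, and bound endogenous DNA and viral DNA cannot be told apart in these counts.

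**Figure D5:**
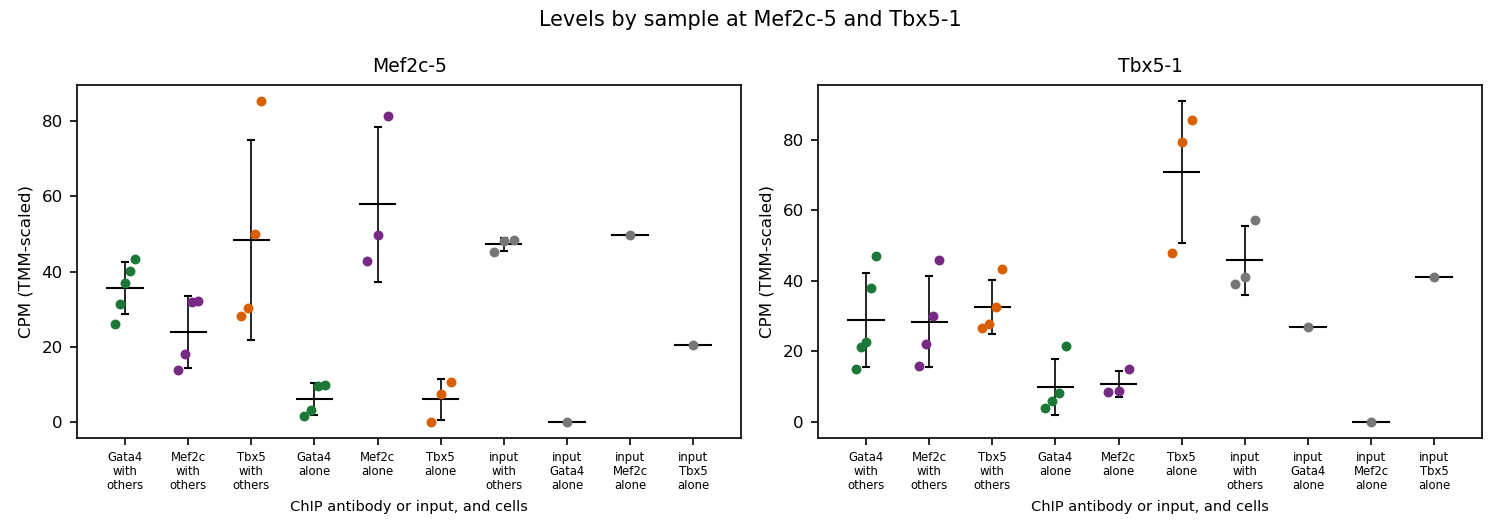
CPM of each sample (points) at Mef2c-5 and Tbx5-1 by antibody or input and kind of cell, with the mean (line) and SD (bar, groups of 2 or more samples). At Mef2c-5 the 9 samples without the Mef2c virus lie at 0 to 20.5 CPM and the 20 with it at 13.7 to 85.5, which overlap, and at Tbx5-1 the input of Mef2c alone is at 0.

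Whether factors differed in their change from a single virus to all 3 was tested directly in 1 edgeR fit of all ChIP groups. The change of Gata4 exceeded that of Mef2c at 3 of 24 members and was the smaller at 0 (9.11% and 4.4% of all regions, 13.5% in either direction). The 3 were Gata4-9 (1.76 ± 0.50, adjusted p = 0.0146), Mef2c-1 (4.5 ± 0.77, adjusted p = 0.000194) and Mef2c-5 (3.86 ± 0.66, adjusted p = 0.000188). At Gata4-9 the call was lost without Mef2c alone 3 (adjusted p = 0.053). The change of Gata4 exceeded that of Tbx5 at 2 of 24 and was the smaller at 0 (2.64% and 0.943% of all, 3.59% in either direction). The 2 were Gata4-17 (2.61 ± 0.55, adjusted p = 0.0032) and Tbx5-1 (2.74 ± 0.61, adjusted p = 0.006). Between Mef2c and Tbx5, 3 of 24 were higher and 3 lower (5.06% and 8.22% of all, 13.3% in either direction). The change of Mef2c was the larger at Gata4-8 (2.04 ± 0.50), Gata4-17 (1.70 ± 0.51) and Tbx5-1 (2.41 ± 0.65) and the smaller at Gata4-14 (-2.53 ± 0.84), Mef2c-1 (-2.70 ± 0.81) and Mef2c-5 (-4.23 ± 0.74), with adjusted p from 0.000215 to 0.0367. At Gata4-14, Tbx5 alone held 3 reads in all (0 to 5.31 CPM), near the floor, and Tbx5 was not called above input in either kind of cell. Mef2c had a mean of 75.6 CPM there with the others and 72.2 alone. The call between Mef2c and Tbx5 was lost at Gata4-14 without Mef2c sample 2 or 5, Tbx5 sample 2 or 4, any Mef2c alone sample or Tbx5 alone 1 or 2 (adjusted p up to 0.121). It was lost at Gata4-17 without Mef2c sample 3 or 4, Tbx5 sample 3, Mef2c alone 1 or Tbx5 alone 2 (0.0505 to 0.0865), and at Mef2c-1 without Mef2c sample 5, Tbx5 sample 3, Mef2c alone 3 or Tbx5 alone 3 (0.0502 to 0.0773). With scaling by library totals the calls were lost for Gata4 against Mef2c at Gata4-9 (adjusted p = 0.059) and for Mef2c against Tbx5 at Gata4-14 and Mef2c-1 (0.0873 and 0.0606). A block on the library number in cells with all 3 viruses kept all of these calls and added 3. Those were Gata4 against Mef2c at Gata4-2 (-1.48 without the block, -1.62 ± 0.54 with it, adjusted p 0.0617 and 0.0268), Gata4 against Tbx5 at Gata4-1 (2.24 and 2.27 ± 0.71, 0.109 and 0.0393) and Mef2c against Tbx5 at Gata4-5 (-1.15 and -1.12 ± 0.36, 0.0895 and 0.0238).

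Finally, the table was searched for the regions whose levels over the 29 samples were most like those of Gata4-9 and Mef2c-1, by Pearson's r of log2 CPM over 15393 regions with enough counts. For Gata4-9 these were chr11:106041145-106041382 (r = 0.96), chr3:133336151-133336496 (0.95) and chr6:38737984-38738186 (0.95). For Mef2c-1, 2 of the 3 most like it were chr17:51797861-51798190 and chr9:7979199-7979506 (both 0.955). The samples share libraries and depth across regions, and these values are descriptions.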

How the data were processed

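The deposited table gives raw counts of reads per region, made with featureCounts after alignment with Bowtie2 2.2.4 to mm9, per the submitters' processing notes and the file headers. How the regions were called is not given in the sources used here. Counts were analysed with edgeR 4.0.16 in R 4.3.3: TMM scaling, edgeR's own low-count filter (10 in a sample, 15 in total), quasi-likelihood F tests, Benjamini-Hochberg adjustment over all regions tested and a threshold of 0.05. SE is the log2 fold change divided by the square root of F. DESeq2 1.42.0 was an alternative, with other scalings, no filter, other sets of inputs, every library as its own sample, each sample left out and a block on library number. Sets of libraries split by chromosome Y reads, and a block on library number between the antibodies' changes, were added after seeing the data. The test was run on simulated counts with the same spread at every region. No simulated sample was made to stand apart, so the check does not cover the Gata4 library that did.

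Libraries were merged where a chi-square test over regions with an expected count of at least 5 found no difference, leaving 29 samples. Counts ranged from 97474 to 2377616 per library, which limits precision most in the single-virus inputs. Library numbers paired the antibodies within cells with all 3 viruses, since same-numbered samples deviated together in all 4 pairs (r from 0.10 to 0.54, 0.21 to 0.53 and 0.24 to 0.62 for Gata4 with Mef2c, Gata4 with Tbx5 and Mef2c with Tbx5), and did not pair cells with all 3 viruses with cells with 1.

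Sample values are given for up to 4 regions per locus with the largest fold over input, the up to 2 with the largest change each way per factor, and regions called in the inputs. The other regions with sample values were chosen after their values were seen. The members and this rule were chosen with earlier results of these data known. A region most like Mef2c-1 is not reported here.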

Additional observations from a re-analysis of the deposited data

Results flagged for a closer look

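In 4 of 56 groups of 4 or 5 samples, 1 sample stood apart from the rest, where chance flags about 1 in 20. At Gata4-9 these were the lowest Gata4 sample with all 3 viruses (number 3, 11.4 CPM) and the lowest Mef2c sample of those cells (number 2, 68.8 CPM). At Gata4-1 it was the lowest sample of Gata4 alone (number 1, 1.94 CPM), and at Mef2c-1 the highest Mef2c sample with all 3 viruses (number 4, 95.7 CPM).

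The change from a single virus to all 3 differed between antibodies by the edgeR interaction test as follows, in log2 units. Gata4 minus Mef2c was 1.76 at Gata4-9, 4.5 at Mef2c-1 and 3.86 at Mef2c-5. Gata4 minus Tbx5 was 2.61 at Gata4-17 and 2.74 at Tbx5-1. Mef2c minus Tbx5 was 2.04 at Gata4-8, -2.53 at Gata4-14, 1.70 at Gata4-17, -2.70 at Mef2c-1, -4.23 at Mef2c-5 and 2.41 at Tbx5-1. At Mef2c-5 and Tbx5-1 the virus itself differs between the groups compared, and its part in these values was not tested.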

How the results depend on the processing

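Over 321 alternatives to the counts of regions called, 290 were within 1.5 times the value reported and 31 were not. Over 1707 alternatives for single regions, 1531 kept direction and side of the threshold, 172 lost the call and 4 reversed: -0.087 for Tbx5 with the others over input at Gata4-5 with every library as its own sample, -0.41 and -0.082 for Mef2c alone over input at Gata4-17 and Mef2c-4 with library totals, and -0.37 for Tbx5 alone over input at Gata4-4 with single-virus inputs only. With every library as its own sample, the low-count filter left 10 members to test over input in each of 4 groups (20, 21, 21 and 14 otherwise), of which 7 in place of 11 were called for Gata4, 9 in place of 16 for Mef2c and 8 in place of 15 for Tbx5 in cells with all 3 viruses, and 3 in place of 5 for Gata4 alone. For Gata4 alone the count was also 3 with library totals, 3 with DESeq2, 8 in 1 fit of all groups and 0 of 7 tested with single-virus inputs only, where Tbx5 alone went from 9 of 16 to 2 of 6. A single fit of all groups gave 5 in place of 8 for the change of Tbx5 and 4 in place of 7 for Gata4 against Tbx5. With libraries 1, 3 and 6 only, 3 regions in place of 9 were called for the change of Gata4, and with 2, 4 and 5 only, 6 in place of 11 for Gata4 over input. Beyond the numbers tested, the cause was not tested.

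Leaving out 1 sample gave 5 to 12 calls for the change of Gata4 (5 without Gata4 alone 1, 2 or 3), 4 to 10 for that of Tbx5 (lowest without Tbx5 alone 2 or 3), 5 to 13 for Gata4 with the others over input (5 without the pooled inputs 1 and 3 or 2, 4 and 5), 10 to 20 for Mef2c with the others over input (10 without inputs 2, 4 and 5), 0 to 12 for Gata4 alone over input, 3 to 8 for Gata4 against Tbx5 (3 without Tbx5 sample 5) and 0 to 1 for the Mef2c virus in the inputs.

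With a block on library number, which does not pair these samples, the change from a single virus to all 3 was called at 5 regions for Gata4, 9 for Mef2c and 7 for Tbx5, and Gata4 over input at 6. The change was then not called for Gata4 at Gata4-4, Gata4-6 and Gata4-8, for Mef2c at Gata4-18 and Mef2c-5, and for Tbx5 at Tbx5-1 (edgeR adjusted p 0.0752, 0.0582, 0.107, 0.181, 0.115 and 0.082). Between antibodies, where the numbers pair, the block gave 11, 8 and 11 calls, and 4, 3 and 7 between their changes, and changed none but those given beside the results. For Mef2c and Tbx5 over input, the block was not run, since after the merging of libraries they share 1 number with the inputs.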
